A study of Mus musculus with 16 samples.

Results

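The genes described here are the glucose-responsive transcription factor ChREBP and its partners, together with target genes through which its activity is commonly read. They were chosen by symbol, and each of Mlxipl, Mlx, Mlxip, Txnip, Arrdc4 and Pklr had a row in the deposited table, so that 6 of 25105 genes are described. Expression was measured by RNA-seq in 16 libraries of dispersed primary mouse islet cells, all from Grp78 flox/flox mice and all kept for 72 hr in 15 mM glucose. The 4 groups of 4 libraries differ in the adenovirus, which carried LacZ as a control (Ad-LacZ) or Cre recombinase to delete the floxed gene (Ad-Cre), and in the vehicle DMSO or the pan-JNK inhibitor JNK-IN-8 (JNK Inh), present from the start of culture. The groups are called Ad-LacZ, Ad-Cre, Ad-LacZ + JNK Inh and Ad-Cre + JNK Inh, the former pair in DMSO. The 4 islet preparations are labelled F1, M1, M2 and F2, and each gave 1 library per group. Every group carried the floxed alleles and a virus, no library was kept at another glucose concentration, and virus can enter any cell of a dispersed islet, so that Cre was not limited to beta cells. Per the study's methods, islets came from adult mice of both sexes over a wide range of ages. The labels name 2 animal numbers per preparation, and the methods speak of 2 male and 2 female mice.

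ChREBP, encoded by Mlxipl, is a basic helix-loop-helix leucine zipper factor that enters the nucleus and becomes active when glucose metabolites accumulate, and it binds DNA as a heterodimer with MLX. MondoA, encoded by Mlxip, is its paralog and uses the same partner. Both act through carbohydrate response elements, which hold a pair of E-box-like motifs separated by 5 bases. Txnip encodes thioredoxin-interacting protein, an alpha-arrestin that binds thioredoxin, restrains glucose uptake and promotes beta cell apoptosis, and it is among the genes most strongly induced by glucose in islets. Arrdc4 encodes a related alpha-arrestin, and Pklr encodes the liver-type pyruvate kinase, the gene in which the carbohydrate response element was first studied.

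The promoters of the target genes and of Mlxipl are shown so that their E-box and E-box-like letters can be compared with the carbohydrate response element. Sequences are RefSeq windows of build GRCm38.p6, 250 bases before an annotated start, read 5′ to 3′ on the strand of the gene and ended before the first annotated exon of the gene. Capitals mark a complete E-box, CACGTG, in Arrdc4 and Mlxipl. In Txnip and Pklr they mark a pair of E-box-like motifs and the bases between them.
Txnip, chr3:96557707-96557956, plus strand: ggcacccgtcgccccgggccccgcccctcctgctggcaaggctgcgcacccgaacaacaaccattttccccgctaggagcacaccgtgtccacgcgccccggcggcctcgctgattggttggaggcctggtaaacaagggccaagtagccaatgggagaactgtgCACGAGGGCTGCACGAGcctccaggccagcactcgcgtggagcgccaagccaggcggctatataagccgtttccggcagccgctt
Pklr, inner start, chr3:89136373-89136571, plus strand: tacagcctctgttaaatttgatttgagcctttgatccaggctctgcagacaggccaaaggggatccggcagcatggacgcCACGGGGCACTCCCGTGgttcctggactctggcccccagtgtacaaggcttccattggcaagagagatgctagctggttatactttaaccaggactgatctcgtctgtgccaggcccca
Arrdc4, chr7:68749242-68749488, minus strand: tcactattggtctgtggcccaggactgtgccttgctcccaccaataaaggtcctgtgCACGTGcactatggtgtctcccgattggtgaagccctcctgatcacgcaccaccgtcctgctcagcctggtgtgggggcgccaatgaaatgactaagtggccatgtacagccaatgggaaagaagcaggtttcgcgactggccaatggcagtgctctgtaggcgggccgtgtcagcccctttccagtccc
Mlxipl, upstream start, chr5:135089640-135089889, plus strand: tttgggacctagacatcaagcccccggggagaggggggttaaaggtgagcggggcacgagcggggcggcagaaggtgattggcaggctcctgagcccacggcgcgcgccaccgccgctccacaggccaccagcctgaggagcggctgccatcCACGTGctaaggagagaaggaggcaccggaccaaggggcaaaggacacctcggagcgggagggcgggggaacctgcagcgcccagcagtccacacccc

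In Txnip the capitals spell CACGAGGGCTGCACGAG, 85 bases before the start, a stretch that also lies in an exon of the antisense gene Gm15441. In Pklr they spell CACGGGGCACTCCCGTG, 170 bases before the inner start and within an intron of a longer Pklr transcript. Both match a paired pattern, CACGNG and CNCGNG with 5 bases between them, searched on both strands, which was written after these letters had been seen. It occurred in 92 of 32851 promoter windows, or 0.28%. A pair of complete CACGTG boxes with the same spacing was in 0 windows. A single palindromic E-box, CACGTG, was found in 6.02% of windows, among them Arrdc4 at 193 bases, Mlxipl at 98 bases from its upstream start and Mlx at 40 bases. The Arrdc4 window also held 6 copies of CCAAT and the Txnip, Mlx and Mlxip windows 2 each, where 10.1% of all windows held 2 or more. Pklr held 1 before its inner start and 0 before its outer start, and Mlxipl 1 before its upstream start and 0 before its inner start. The AP-1 letters TGANTCA, the motif of JUN dimers, were in 6.75% of all windows and in none of the 8 windows of the 6 genes, which says nothing on sites outside these 250 bases. No window of the other ChREBP target genes described below, 16 windows of 15 genes, held the paired pattern.

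Depth, read from the steps between low values, was 7720000 to 25462000 reads, and the shallowest library was Ad-Cre + JNK Inh F2. At this depth Txnip rested on 3270 to 19754 reads per library, Arrdc4 on 597 to 2687, Mlxipl on 459 to 3632, Mlxip on 400 to 1509, Mlx on 320 to 1168 and Pklr on 220 to 1083. Hspa5, which encodes GRP78 and is the floxed gene, had 395 to 483 RPKM (reads per kilobase of transcript, scaled to library size) in Ad-LacZ and 1107 to 1598 RPKM in Ad-Cre, so that its level went against the knockdown in the label. A value per gene cannot show the loss of single exons, and directions below are those of the libraries labelled Ad-Cre. Jun, an autoregulated target of JNK signalling, had 15.7 to 28.6 RPKM in Ad-LacZ and 6.02 to 14.1 RPKM in Ad-LacZ + JNK Inh, with no overlap. The defining markers of beta cells, alpha cells, delta cells, macrophages and fibroblasts were above 0 in the groups, while of 5 acinar markers 1 or 2 were at 0. In islet tissue measured in bulk, fewer cells of a type and less RNA per cell cannot be told apart.

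Txnip was by far the most abundant of the 6 transcripts per length. Its mean was 208 ± 65.7 RPKM (SD, n = 4) in Ad-LacZ, which ranked 114 of 25105 genes, and no library of any group had less than 66.2 RPKM of Txnip or more than 30.2 RPKM of another of the 6 genes. In Ad-LacZ it was followed by Mlx at 21.4 ± 1.00 RPKM, Mlxipl at 19.5 ± 9.44 RPKM, Arrdc4 at 14.3 ± 4.48 RPKM, Pklr at 8.71 ± 3.04 RPKM and Mlxip at 6.12 ± 0.617 RPKM (SD, n = 4 each). Below Txnip, the libraries of each gene in this order overlapped with those of the next, so that only Txnip stood apart. In Ad-Cre the order was Txnip, Mlx, Arrdc4, Pklr, Mlxipl and Mlxip, and below Txnip the only neighbours that did not overlap were Arrdc4 (14.9 to 28.3 RPKM) and Pklr (8.72 to 14.3 RPKM). In Ad-LacZ + JNK Inh the order was Txnip, Mlx, Mlxipl, Arrdc4, Mlxip and Pklr, with no overlap of Mlx (20.0 to 22.7 RPKM) and Mlxipl (9.75 to 19.6 RPKM). In Ad-Cre + JNK Inh it was Txnip, Mlx, Arrdc4, Mlxipl, Pklr and Mlxip, and only Txnip stood apart from its neighbour.

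**Figure D1:**
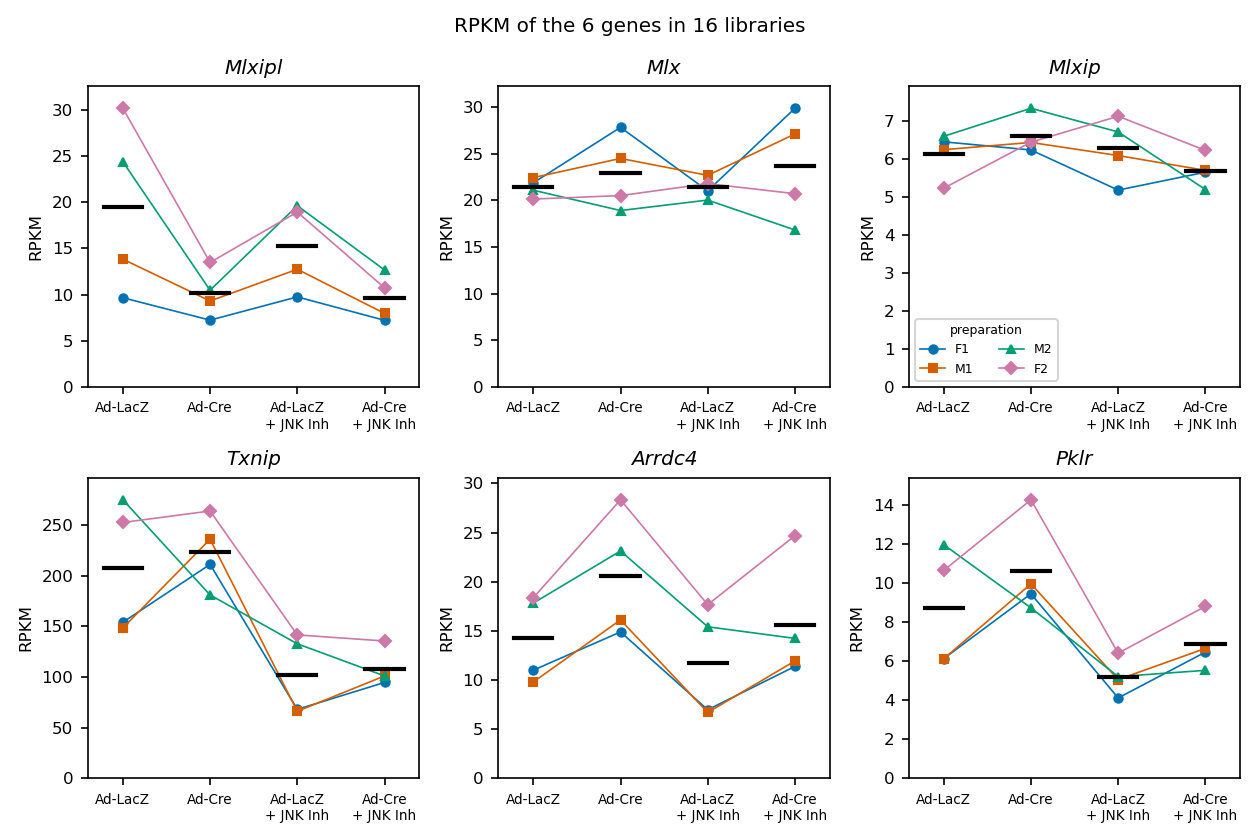
RPKM of the 6 genes (y axis, linear, from 0) in the 4 groups (x axis). Points are single libraries, lines join the libraries of 1 preparation, and black bars are group means; Txnip was lower in the groups with JNK Inh in each preparation, and Mlxipl was lower in Ad-Cre than in Ad-LacZ in each preparation.

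The comparison of Ad-Cre with Ad-LacZ addresses how cells respond to the deletion of Grp78. Among the sensors, Mlxipl was lower in the libraries labelled Ad-Cre. Mlxipl had 9.66, 13.8, 24.4 and 30.2 RPKM in Ad-LacZ (preparations F1, M1, M2 and F2) and 7.23, 9.31, 10.5 and 13.5 RPKM in Ad-Cre. The groups overlapped because preparations F1 and M1 were low in Ad-LacZ, but within each preparation Ad-Cre was the lower of the pair. The log2 fold change was -0.79 (standard error 0.29, 95% confidence interval -1.46 to -0.13), a level 1.73-fold lower. Its adjusted p was 0.0950 in limma with Benjamini-Hochberg adjustment over 11590 genes, and an exact permutation test, two-sided, gave p = 0.0571, where 0.0286 is the smallest p that 4 libraries against 4 allow. With the preparation as a block, the standard error was 0.16 and the adjusted p was 0.0085, and it remained at 0.0094 to 0.0348 with any 1 preparation left out. At an adjusted p under 0.05 and a fold above 1.5, 0 of the 6 genes were called without the block, where 8.48% of all genes were (1 of 6 and 10.3% by the unadjusted p), and Mlxipl alone was called with it, where 10.9% of all genes were.

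With inhibitor in both arms, Mlxipl showed the same direction. Its level was 9.75, 12.7, 19.6 and 18.9 RPKM in Ad-LacZ + JNK Inh and 7.21, 7.96, 12.7 and 10.7 RPKM in Ad-Cre + JNK Inh. Each preparation was again lower with Ad-Cre, with log2 differences of -0.62 to -0.35. On average Mlxipl stood at -0.47 on the log2 scale (standard error 0.18), with an adjusted p of 0.101, or 0.0265 with the block (limma), 1.38-fold lower and thus short of the fold of 1.5. The blocked adjusted p was 0.164 without preparation M1 and 0.175 without preparation F2. Beta cell markers moved the same way as Mlxipl. All 8 of them were lower in Ad-Cre than in Ad-LacZ, at a median of -0.79 on the log2 scale, and 7 of 8 were lower with inhibitor in both arms, at a median of -0.84. Their summed level was 51227 to 83746 RPKM in Ad-LacZ and 33341 to 84105 RPKM in Ad-Cre. Among them Ins1 and Ins2 were at -0.38 and -0.18, Mafa at -1.67 and Ucn3 at -2.11, of which Ucn3 alone was called. With the block, in which Mlxipl was called, 5 of the 8 were called lower. Of all genes, 8.48% were called in either direction without the block and 10.9% with it. With inhibitor in both arms 3 of the 8 markers were called lower, and 5 with the block, where 14.6% and 16.0% of all genes were called. All 6 macrophage markers were higher in Ad-Cre than in Ad-LacZ, with C1qb and Ctss called. The part of these markers in the result was not tested.

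The partner Mlx and the paralog Mlxip had small estimates between groups, some of them of 1 sign in every preparation. Mlx had 20.1 to 22.4 RPKM in Ad-LacZ, 18.9 to 27.8 RPKM in Ad-Cre, 20.0 to 22.7 RPKM in Ad-LacZ + JNK Inh and 16.8 to 29.9 RPKM in Ad-Cre + JNK Inh. The Ad-Cre groups were spread more widely, with preparations F1 and M1 high and M2 low. For Mlx the estimate on the log2 scale was 0.08 without inhibitor (95% confidence interval -0.33 to 0.49) and 0.23 with it (-0.25 to 0.72). Mlxip had 5.22 to 6.59 RPKM in Ad-LacZ and 6.23 to 7.33 RPKM in Ad-Cre, with log2 fold changes of 0.09 (-0.13 to 0.31) and 0.00 (-0.22 to 0.22) in the same comparisons. Mlx was higher with Ad-Cre in 4 of 4 preparations with inhibitor, and higher with inhibitor in 4 of 4 Ad-Cre cultures (0.13 to 0.25 on the log2 scale, blocked interval 0.02 to 0.34, blocked adjusted p = 0.150, or 0.0290 without M2). Mlxip was higher in 4 of 4 in Ad-Cre against Ad-LacZ, by at most 0.17. With all 4 preparations, no adjusted p of Mlx or Mlxip in the 4 comparisons was under 0.05 in limma, with or without the block. Their exons overlap, on the other strand, with Psmc3ip (385 bases, Mlx) and Gm15747 (267 bases, Mlxip), and the strand of counting is not stated, so that shared reads cannot be told apart.

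The mean estimates of Arrdc4, Pklr and Txnip were not lower in the libraries labelled Ad-Cre, unlike that of Mlxipl. In preparation M2, however, Txnip (-0.60 on the log2 scale) and Pklr (-0.41) were lower together with Mlxipl (-1.14). Arrdc4 was higher in each preparation. It had 11.0, 9.80, 17.8 and 18.4 RPKM in Ad-LacZ and 14.9, 16.1, 23.1 and 28.3 RPKM in Ad-Cre, overlapping groups in which preparations M2 and F2 were high in both. The difference was 0.50 on the log2 scale (standard error 0.21), with an adjusted p of 0.130 in limma. With the block the standard error was 0.09 and the adjusted p = 0.0062, but the level was 1.42-fold higher, under the fold of 1.5. Any 1 preparation could be left out of the blocked fit without the adjusted p passing 0.0289. With inhibitor in both arms Arrdc4 was again higher in 4 of 4 preparations, by 0.13 to 0.87 on the log2 scale, with a log2 fold change of 0.56 (standard error 0.28, adjusted p = 0.184, or 0.0374 with the block). There the blocked adjusted p was 0.0678, 0.199 and 0.172 without F1, M1 and F2, and the estimate was 0.37 without the shallow library alone. Without the block, 16.9% of all genes passed the adjusted p alone in Ad-Cre against Ad-LacZ, and with it 34.4%, so that passing it was common in this comparison.

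Pklr was higher with Ad-Cre in 3 of 4 preparations without inhibitor and in 4 of 4 with it. Its level was 6.13, 6.12, 12.0 and 10.6 RPKM in Ad-LacZ and 9.44, 9.95, 8.72 and 14.3 RPKM in Ad-Cre, a log2 fold change of 0.28 (standard error 0.21, adjusted p = 0.378, limma). Preparation M2 ran against the other three, and the estimate was 0.16 without M1 and 0.53 without M2, where the blocked adjusted p was 0.0149. With inhibitor, Pklr had 4.11, 5.05, 5.21 and 6.41 RPKM in Ad-LacZ + JNK Inh and 6.46, 6.65, 5.53 and 8.80 RPKM in Ad-Cre + JNK Inh. Pklr thus differed by 0.45 on the log2 scale (standard error 0.13), with an adjusted p of 0.0398 in limma, 1.37-fold higher and so not called at a fold of 1.5, in a comparison where 20.6% of all genes passed the adjusted p alone and 14.6% passed both (17.8% by the unadjusted p). With the block 16.0% passed both and 24.8% the adjusted p, and 0 of the 6 genes were called in either fit. In the fit with no block, the adjusted p of Pklr was 0.118 without the shallow library Ad-Cre + JNK Inh F2. It was 0.154, 0.196 and 0.159 without preparations F1, M1 and F2. With the block the adjusted p of Pklr was 0.0279 (limma). With 1 preparation left out of the blocked fit it was 0.0191 to 0.167, and under 0.05 in 2 of 4 cases. Pklr shares 711 exonic bases with Hcn3 on the other strand.

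Txnip showed no common direction between the viruses. Its level was 154, 148, 275 and 253 RPKM in Ad-LacZ and 211, 236, 181 and 264 RPKM in Ad-Cre. Preparations F1 and M1 were higher with Ad-Cre by 0.51 and 0.69 on the log2 scale, while M2 and F2 were at -0.60 and -0.03. The log2 fold change was 0.14 (standard error 0.22, 95% confidence interval -0.36 to 0.64, adjusted p = 0.695, limma), which turned negative, to -0.18, under quantile normalization and to -0.04 without preparation M1. With inhibitor in both arms it was 0.29 (standard error 0.22, adjusted p = 0.378), and -0.09 under quantile normalization. Regulators that are known to act on Txnip were among the called genes. PERK (Eif2ak3) rose by 0.59, Atf4 by 0.65 and Atf5 by 0.67 on the log2 scale in Ad-Cre, while Foxo1 had -0.69 and the AMPK subunit Prkaa1 -0.59 (adjusted p = 0.00914 to 0.0426, limma), 5 of 9 genes of this list where 8.48% of all genes were called. The median log2 fold change of the list was -0.16, against -0.01 over all genes tested. None of the 9 was called for the inhibitor, in either virus, with or without the block.

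**Figure D2:**
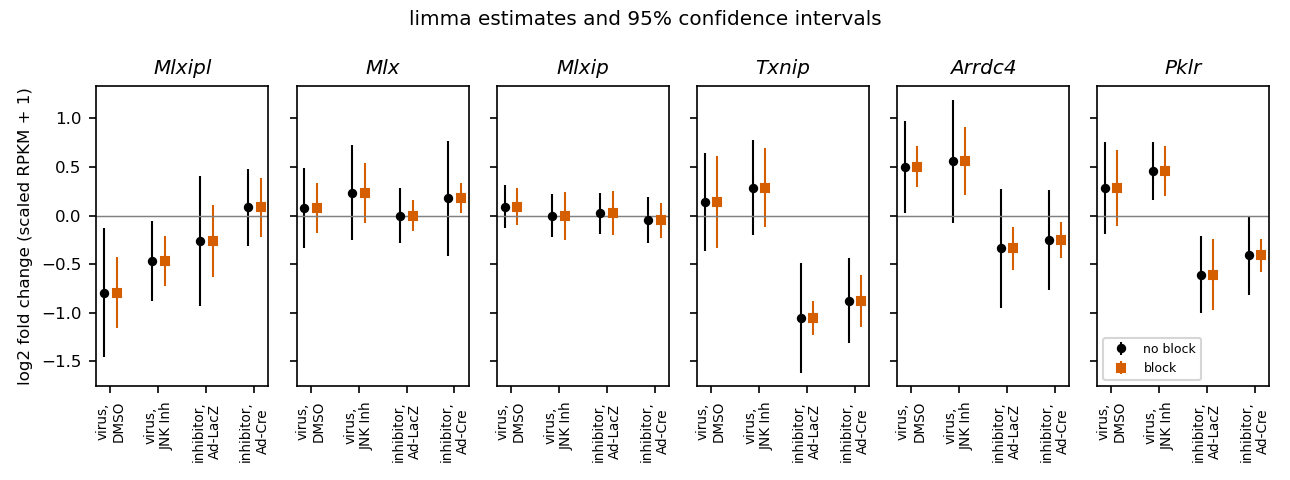
Log2 fold change of each gene (y axis, on scaled RPKM + 1) for virus and for inhibitor (x axis), with 95% confidence intervals from limma; black circles are fits with no block and orange squares are fits with the preparation as a block. The intervals of Txnip and Pklr for the inhibitor lie under 0 in both fits, while those of Mlx and Mlxip without the block include 0.

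The comparison of each virus with and without JNK Inh addresses which transcripts depend on JNK activity. Txnip was lower with inhibitor in all 4 preparations of both viruses. In Ad-Cre + JNK Inh it had 94.7, 101, 101 and 136 RPKM, against 211, 236, 181 and 264 RPKM in Ad-Cre. The highest library with inhibitor lay under the lowest without, and preparation M2 had the smallest log2 difference, -0.53, against -1.11 to -0.82 in the others. The log2 fold change was -0.88 (standard error 0.19, 95% confidence interval -1.31 to -0.44), a level 1.84-fold lower, the 36th lowest of 11503 genes. Its adjusted p was 0.264 in limma with an unadjusted p of 0.00136, and p = 0.0286 in the exact permutation test. A complete separation towards lower values was found for 2.27% of all genes.

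In Ad-LacZ cultures, which had no Cre, Txnip had 154, 148, 275 and 253 RPKM without and 68.1, 66.2, 133 and 142 RPKM with inhibitor. The preparations that were low without inhibitor stayed low with it, the groups did not overlap, and the differences were alike, from -1.16 to -0.96 on the log2 scale. The log2 fold change was -1.05 (standard error 0.25, 95% confidence interval -1.62 to -0.49), 2.07-fold lower and the 6th lowest of 11657 genes, next to Jun, which was the 5th at -1.08. Its adjusted p was 0.268 in limma with an unadjusted p of 0.00230, and p = 0.0286 in the exact permutation test, where 2.57% of all genes separated towards lower values. The 2 inhibitor comparisons share no library, but both come from the same preparations F1, M1, M2 and F2. Pairs of cultures in the 2 viruses are therefore not independent of each other.

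Whether Txnip was called for the inhibitor turned on the preparation. Without the block, 0 of the 6 genes passed an adjusted p under 0.05 and a fold above 1.2 in either virus, and 0.0174% of all genes did in Ad-Cre and 0.197% in Ad-LacZ. By the unadjusted p, Txnip and Pklr passed in both, as did 7.81% and 4.83% of all genes. With the preparation as a block, the standard error of Txnip was 0.11 in Ad-Cre (adjusted p = 0.0190) and 0.07 in Ad-LacZ (adjusted p = 0.0372), and the shares of all genes called were 6.76% and 0.335%. The blocked call did not hold for each choice of 3 preparations. In Ad-Cre the blocked adjusted p of Txnip was 0.0784 without F1, 0.136 without M1 and 0.129 without F2, the preparation of the shallow library, but 0.00237 without M2. In Ad-LacZ it was 0.253 without M1 and 0.206 without M2, but 0.0227 without F1 and 0.0309 without F2. In these fits the estimate itself moved between -0.99 and -0.80 in Ad-Cre and between -1.07 and -1.02 in Ad-LacZ.

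Pklr was also lower with inhibitor in all 8 pairs of cultures. In Ad-LacZ its log2 fold change was -0.61 (standard error 0.17, 95% confidence interval -1.0 to -0.21), 1.52-fold lower, with an adjusted p of 0.435 without and 0.194 with the block (limma). Its scaled values separated completely (p = 0.0286, exact permutation test), although the deposited RPKM overlapped, since 6.41 RPKM in Ad-LacZ + JNK Inh F2 exceeded the 6.13 and 6.12 RPKM of F1 and M1 without inhibitor. In Ad-Cre the log2 fold change was -0.41 (standard error 0.18), 1.33-fold lower, with an adjusted p of 0.622. It was called with the block (adjusted p = 0.0292), but not without F1, M1 or F2 (0.117, 0.176 and 0.158), nor with all 16 libraries in 1 blocked fit (0.156).

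Arrdc4 was lower with inhibitor in 8 of 8 pairs as well, but by less. The log2 differences were -0.38 to -0.06 in Ad-Cre and -0.49 to -0.17 in Ad-LacZ. The log2 fold changes were -0.25 (95% confidence interval -0.76 to 0.26) and -0.34 (-0.95 to 0.28), with adjusted p of 0.877 and 0.999, or 0.109 and 0.217 with the block (limma). Mlxipl showed no such pattern, at 0.08 in Ad-Cre (-0.32 to 0.48) and -0.26 in Ad-LacZ (-0.93 to 0.41), with 2 of 4 and 3 of 4 preparations lower. Mlx and Mlxip were at 0.18 and -0.05 in Ad-Cre and at 0.00 and 0.02 in Ad-LacZ.

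**Figure D3:**
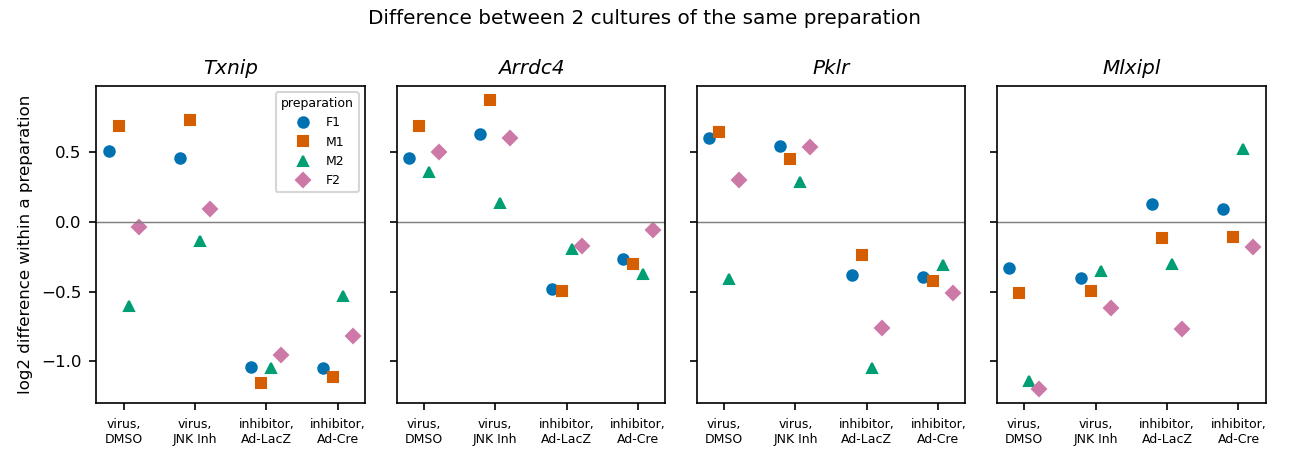
Log2 difference between 2 cultures of the same preparation (y axis) for virus and for inhibitor (x axis); each point is 1 preparation. With inhibitor, Txnip, Arrdc4 and Pklr lie under 0 in 8 of 8 pairs each, while Txnip between viruses and Mlxipl with inhibitor lie on both sides of 0.

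Markers of other cell types also differed with the inhibitor. The 6 macrophage markers summed to 77.1 to 86.2 RPKM in Ad-LacZ and 151 to 330 RPKM in Ad-LacZ + JNK Inh, where all 6 were higher and Lyz2, Cd68 and Ctss were called, and to 78.1 to 219 RPKM in Ad-Cre and 187 to 325 RPKM in Ad-Cre + JNK Inh. Duct markers summed to 136 to 274 RPKM in Ad-LacZ and 376 to 909 RPKM in Ad-LacZ + JNK Inh. In the latter group Spp1 alone had a mean of 571 RPKM, of a mean sum of 634 RPKM. In the Ad-Cre groups duct markers summed to 104 to 331 RPKM without and 217 to 305 RPKM with inhibitor. Fibroblast markers summed to 23.6 to 108 RPKM in Ad-LacZ, 43.7 to 507 RPKM in Ad-LacZ + JNK Inh, 21.8 to 669 RPKM in Ad-Cre and 26.3 to 148 RPKM in Ad-Cre + JNK Inh. In Ad-Cre cultures 4 macrophage markers were higher and 2 lower with inhibitor, and 1 fibroblast marker was higher and 5 lower. The 5 alpha cell markers were all higher with inhibitor in Ad-Cre cultures, at a median of 0.48 on the log2 scale, and 2 of 5 were higher in Ad-LacZ cultures. The 3 delta and PP cell markers were also all higher in Ad-Cre cultures, at a median of 0.57, with sums of 2820 to 5167 RPKM without and 4802 to 9566 RPKM with inhibitor and 1 called with the block. Between viruses with inhibitor in both arms, 5 of 5 alpha and 3 of 3 delta and PP markers were higher, at medians of 0.55 and 0.85. Beta cell markers were lower with inhibitor in 5 of 8 cases in both viruses, with medians of -0.18 and -0.15, and 0 were called. Their sum was lower with inhibitor in each Ad-LacZ preparation, at 83746, 77882, 51227 and 59741 RPKM without and 45004, 60150, 35159 and 48087 RPKM with it (F1, M1, M2 and F2), and was 33139 to 64181 RPKM in Ad-Cre + JNK Inh. The part of these cells in the lower Txnip and Pklr was not tested.

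The effect of virus did not differ detectably with inhibitor for any of the 6 genes. The interaction term over all 16 libraries was 0.16 for Txnip (standard error 0.33, 95% confidence interval -0.54 to 0.86), 0.19 for Pklr (-0.37 to 0.75), 0.08 for Arrdc4 (-0.73 to 0.88), 0.34 for Mlxipl (-0.44 to 1.12), 0.17 for Mlx and -0.08 for Mlxip. In limma 0 of 12274 genes passed the adjusted p (0.0%), 396 (3.23%) passed an unadjusted p under 0.05, and the lowest unadjusted p of the 6 was 0.372. With the preparation as a block 0 genes passed the adjusted p, and 684 higher and 742 lower passed the unadjusted p. The lowest unadjusted p of the 6 was then 0.164, that of Mlxipl (limma, interval -0.16 to 0.83). The interval of Mlxipl reached 1.12, or 0.83 with the block, each beyond the size of its difference between viruses.

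Other target genes ascribed to ChREBP did not behave as 1 group. Of 22 listed, 17 passed the low filter in Ad-Cre against Ad-LacZ, 10 higher and 7 lower, with a median log2 fold change of 0.25 against -0.01 over all genes tested. Fasn, which encodes fatty acid synthase, was called. It had 12.7 to 20.6 RPKM in Ad-LacZ and 26.3 to 30.2 RPKM in Ad-Cre, with a log2 fold change of 0.63 (standard error 0.17, adjusted p = 0.0375, limma), and 0.91 (standard error 0.25, adjusted p = 0.0319) with inhibitor in both arms. Malic enzyme, Me1, passed the adjusted p in the other direction, at -0.42 and -0.46 (adjusted p = 0.0198 and 0.0194), but not the fold. Fasn was thus the 1 gene called of 17 tested in each comparison, where 8.48% and 14.6% of all genes were called. With the block, Bhlhe40, Scd1, Mid1ip1 and Tkt also passed the adjusted p in Ad-Cre against Ad-LacZ, each higher and each under the fold of 1.5. In that fit 34.4% of all genes passed the adjusted p.

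For the inhibitor, 9 of 16 tested genes of that list were lower in Ad-Cre cultures and 10 of 17 in Ad-LacZ cultures, with medians of -0.11 and -0.06 against -0.01 and -0.02 over all genes, and 0 were called. Klf10, a glucose-induced Krüppel-like factor, was among the lower genes in both viruses. Klf10 had 18.5 to 33.7 RPKM in Ad-Cre and 12.2 to 22.8 RPKM in Ad-Cre + JNK Inh, a log2 fold change of -0.48 (standard error 0.19, adjusted p = 0.558, or 0.0274 with the block, limma), and -0.42 in Ad-LacZ (standard error 0.21). ATP citrate lyase, Acly, passed with the block in Ad-Cre as well, at -0.38 (adjusted p = 0.0386). In that fit 2 of 16 were called, where 6.76% of all genes were. The stearoyl-CoA desaturase genes Scd1 and Scd2 lay on the other side, at 0.66 and 0.49 in Ad-LacZ, and were not called.

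**Figure D4:**
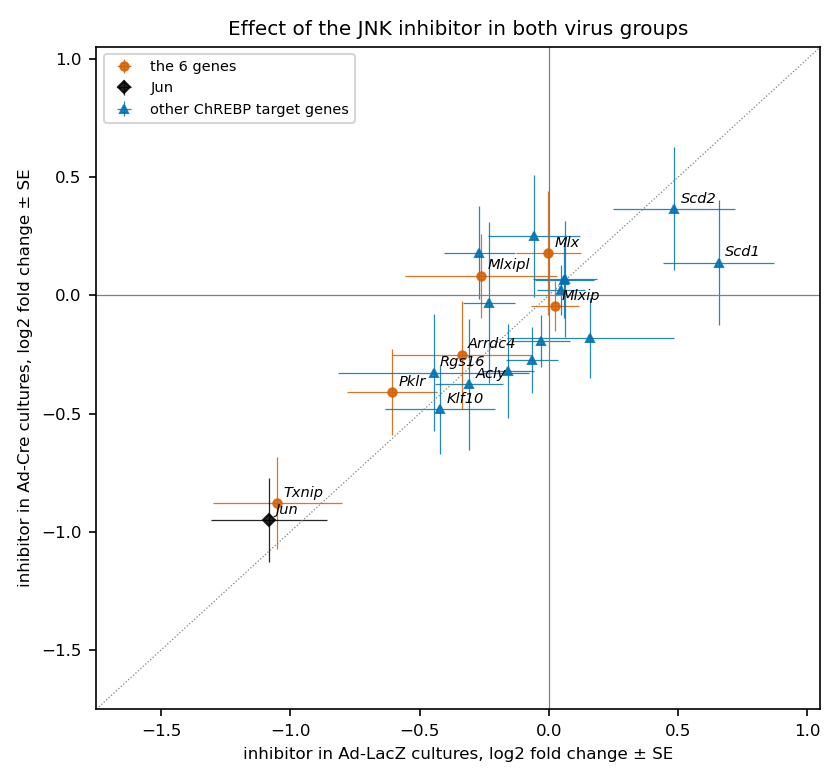
Log2 fold change of the inhibitor in Ad-LacZ cultures (x axis) and in Ad-Cre cultures (y axis), with standard errors, for the 6 genes (orange circles), Jun (black diamond) and other ChREBP target genes that are reported here (blue triangles). Txnip and Jun lie near -1 on both axes, Pklr lies between them and 0, and most other target genes nearer to 0.

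Of the genes that set glucose entry and hexose phosphates, the signal that ChREBP senses, 2 of 13 tested were called in Ad-Cre against Ad-LacZ. G6pc2, the islet glucose-6-phosphatase subunit, had 632 to 978 RPKM in Ad-LacZ and 133 to 278 RPKM in Ad-Cre, a log2 fold change of -1.96 (standard error 0.32, adjusted p = 0.0069, limma). Pgd, of the pentose phosphate pathway, was called higher at 0.94 (standard error 0.13, adjusted p = 0.00356). Slc2a2, encoding the glucose transporter GLUT2 and also 1 of the 8 beta cell markers, was at -1.28 (adjusted p = 0.0906, or 0.00222 with the block), and -1.69 (adjusted p = 0.0177) with inhibitor in both arms, where G6pc2, Pgd and Gfpt1 also passed. Of the 13 genes tested, 8 were higher and 5 lower in Ad-Cre, with a median of 0.24. The 2 called there, or 5 with the block, stand beside 8.48% and 10.9% of all genes. With inhibitor in both arms 2 were called higher and 2 lower, where 14.6% of all genes were called. For the inhibitor 0 of 13 were called in either virus without the block, where 0.0174% and 0.197% of all genes were. With it, in Ad-Cre, where 6.76% of all genes were called, G6pdx was called higher at 0.38 and Pfkfb3 lower at -0.37 (adjusted p = 0.046 each).

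The thioredoxin system, to which TXNIP binds, was mostly higher in the libraries labelled Ad-Cre. Of 11 genes, 10 were higher in Ad-Cre than in Ad-LacZ with a median log2 fold change of 0.34, and 10 were higher with inhibitor in both arms with a median of 0.59, against -0.01 and -0.03 over all genes. Peroxiredoxin 1, Prdx1, had 56.0 to 71.8 RPKM in Ad-LacZ and 88.0 to 122 RPKM in Ad-Cre, a log2 fold change of 0.64 (standard error 0.11, adjusted p = 0.0084, limma). Thioredoxin, Txn1, and Prdx5 passed the adjusted p at 0.54 and 0.53, under the fold of 1.5. Thus 1 of 11 was called, where 8.48% of all genes were. The adjusted p alone was passed by 3 of 11, and by 16.9% of all genes. With inhibitor in both arms 6 were called, Prdx1 (0.99), Prdx2 (0.81), Prdx5 (0.78), Prdx3 (0.67), Txn2 (0.65) and Txn1 (0.59), where 14.6% of all genes were called, and 5 with the block (16.0% of all genes). Map3k5, which encodes the thioredoxin-bound kinase ASK1 upstream of JNK, was the 1 lower gene, at -0.26 and -0.34, and was not called. For the inhibitor, 0 were called without the block. With it, Prdx1 and Txn2 were called higher in Ad-Cre, at 0.62 and 0.46, where 6.76% of all genes were called.

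In smaller lists few genes passed. Of 10 partners of the MAX and MLX network 7 were tested, and only Mga in Ad-Cre against Ad-LacZ (-0.46, adjusted p = 0.0306, limma) and Max with inhibitor in both arms (0.45, adjusted p = 0.0346) passed the adjusted p, both under the fold, and Max had an adjusted p of 0.0549 with the block. The other alpha-arrestins Arrdc1, Arrdc2 and Arrdc3 passed in no comparison, with or without the block, and had log2 fold changes of -0.05 to 0.15 for the inhibitor, where Txnip and Arrdc4 were lower. Of 6 inflammasome genes linked to TXNIP, Nlrp3, Casp1, Pycard and Il1b did not pass the low filter in the comparisons of 2 groups, and Il18 and Gsdmd were not called, although Il18 passed the adjusted p with the block where inhibitor was in both arms (-0.49, adjusted p = 0.043).

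Over the 16 libraries, the genes most like Txnip among 12274 included Pdk1 (Pearson's r = 0.91), 2310022B05Rik (0.89), Gm11789 (0.88) and Klhl42 (0.88). These coefficients are descriptions, since the libraries share preparations and groups. Pdk1, a kinase that restrains pyruvate oxidation, had 5.30 to 10.7 RPKM in Ad-LacZ and 3.29 to 5.21 RPKM in Ad-LacZ + JNK Inh, a log2 fold change of -0.83 (adjusted p = 0.144, limma). Among the 6 genes, Txnip was most like Pklr (0.85) and then Arrdc4 (0.67), and Mlxipl was not like its targets, with 0.21 for Txnip, 0.03 for Arrdc4 and 0.02 for Pklr. Jun had 0.86 and Klf10 0.85 with Txnip. The genes most like Arrdc4 were Gtpbp2, Hmg20b (0.91 each), Ddhd2, Luc7l (0.89 each) and Pfkfb3 (0.88), and those most like Mlxipl were Spag1 (0.92), Eml5 (0.91), Adgb, A530020G20Rik and Ccnt2 (0.90 each).

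On GRCm38 the genes lie at chr3:96557957-96561883 (Txnip, plus strand), chr7:68736995-68749241 (Arrdc4, minus strand), chr3:89136142-89146784 (Pklr, plus strand), chr5:135089890-135138382 (Mlxipl, plus strand), chr11:101087277-101092207 (Mlx, plus strand) and chr5:123394798-123457932 (Mlxip, plus strand). Txnip shares 606 exonic bases with Gm15441 on the other strand, which was listed at 0.204 to 1.71 RPKM, a small level beside 66.2 to 275 RPKM of Txnip. Mlxipl shares 235 bases with Gm43500. Values are per gene, so the upstream and inner starts of Mlxipl, from which different ChREBP isoforms arise, cannot be told apart.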

How the data were processed

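Dispersed islet cell cultures of 4 preparations gave 16 poly(A) libraries, sequenced as paired ends. The authors counted reads after alignment to the mouse genome, citing STAR, and the values they deposited are RPKM; GRCm38 is the build in the submitters' processing notes, and the step from counts to RPKM is not given in the sources used here. Another 3 columns that no label names were not used. Low RPKM values times exon length lay within 0.05 of whole reads for 93.4% to 94.3% of values, which gave the depth. The column header of Ad-Cre + JNK Inh F2 differs from all others in its first and last codes, which may mark a sequencing run and lane.

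A gene was kept where 4 or more of the libraries compared exceeded 1 RPKM. RPKM were scaled by TMM factors (trims of 30% and 5%) and log2(scaled RPKM + 1) was modelled in limma 3.58.1 (eBayes with trend) in R 4.3.3 on the libraries compared, with Benjamini-Hochberg adjustment over all genes tested. Fold changes on this scale understate those of low genes. Calls required an adjusted p under 0.05 and a fold above 1.5 (virus) or 1.2 (inhibitor), the folds the study used. Exact two-sided permutation tests used scipy 1.17.1. Groups came from the labels. Each library serves in 1 virus and 1 inhibitor comparison, so these share libraries.

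The numbers F1 to F2 pair libraries, since the methods describe parallel cultures of 1 biological replicate. As a check, deviations from the group means correlated by 0.131 to 0.826 between libraries of the same number in the 4 comparisons of 2 groups, with means of -0.230 to -0.129 over other pairs.

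Members and lists were chosen with earlier results of these data known. Named genes are the 6 genes, Hspa5 and Jun, list genes that passed the adjusted p or were among the 3 largest estimates of their list, and the 5 genes most like Txnip, Arrdc4 or Mlxipl. Genes that passed only with the block, marker genes, Map3k5, Klf10 and the values of Pdk1 were singled out after their values were seen. Alternatives were a pseudocount of 0.1, no filter, RPKM as deposited, quantile normalization, all 16 libraries, the block, and each preparation or the shallow library left out. The procedure was tested on simulated data. Promoter windows and gene locations came from RefSeq and GENCODE tables of GRCm38; all 6 genes had windows. Values of some genes chosen by these rules are not reported here, although counts and medians of their lists include them.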

Additional observations from a re-analysis of the deposited data

Results flagged for a closer look

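Among the 6 genes in the 4 groups, 1 value stood apart from the rest of its group. Txnip in Ad-Cre + JNK Inh had 94.7, 101 and 101 RPKM in preparations F1, M1 and M2 and 136 RPKM in F2, a gap of 0.842 of the group's range. Chance places about 1 in 20 groups that far apart. That library is the shallowest, with 7720000 reads. Its column header differs from those of all other libraries in its first and last codes, which may mark a sequencing run and lane. Without that library the log2 fold change of Txnip for the inhibitor in Ad-Cre was -0.96, against -0.88 with it.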

How the results depend on the processing

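Of 456 values of the 6 genes under alternatives, 393 kept their direction and their side of the threshold, 30 became significant, 9 lost significance and 24 changed sign. The fits with all 16 libraries and the block, and those with the block and 1 preparation left out, were chosen after seeing the data.

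With the preparation as a replicate block, the count of the 6 genes called was 1 for Ad-Cre against Ad-LacZ, 2 for the inhibitor in Ad-Cre and 1 in Ad-LacZ, and with all 16 libraries and the block it was 1, 1 and 1. All genes called for the inhibitor were 778 in Ad-Cre and 39 in Ad-LacZ with the block, and 671 and 110 with all 16 libraries and the block. Txnip had -0.88 and -1.05 with the block, and -0.88 and -1.04 with all 16 libraries and the block. With 1 preparation left out and no block, the genes called were 165 to 704 for Ad-Cre against Ad-LacZ, 323 to 2394 with inhibitor in both arms, 0 for the inhibitor in Ad-Cre and 1 to 3 in Ad-LacZ. With the block they were 917 (without F2) to 1620 (without M1), 273 (without F2; 317 without M1) to 2655 (without M2), 0 to 2392 (without M2), and 0 (without M1 or M2) to 139 (without F1). The count of the 6 genes called was then 1, 0 to 1, 0 to 2 and 0 to 1. Txnip ranged from -0.043 to 0.41, 0.14 to 0.43, -0.99 to -0.80 and -1.07 to -1.02.

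With the inhibitor, 2 genes were called in Ad-Cre, and 0 with no filter, 0 with RPKM as deposited, 1 with quantile normalization and 59 with all 16 libraries. In Ad-LacZ 23 genes were called, and 6 with no filter, 7 with RPKM as deposited and 10 with all 16 libraries. The interaction had 1 gene under quantile normalization. The cause of these changes was not tested.

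Signs changed for small values. Txnip between viruses was -0.18 under quantile normalization and -0.043 without M1, and -0.095 under quantile normalization with inhibitor. Mlxip with inhibitor in both arms was -0.12 as deposited, -0.031 without F1 and -0.010 without M1 (highest 0.032). Mlxipl for the inhibitor in Ad-Cre was -0.064 as deposited and -0.066 without M2 (highest 0.17). Mlx between viruses was -0.025 without F1 (highest 0.17). For the inhibitor in Ad-LacZ, Mlx was 0.0067 with all 16 libraries, with or without the block, 0.033 without M2 and 0.011 without F2 (lowest -0.024), and Mlxip was -0.051 without F2 (highest 0.087). The interaction of Arrdc4 was -0.072 as deposited and -0.12 without Ad-Cre + JNK Inh F2 (highest 0.16). RPKM as deposited moved the median of all genes to -0.14 in both comparisons of Ad-Cre + JNK Inh.

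Each preparation gave 1 library per group, and a library of 7720000 reads enters each comparison of Ad-Cre + JNK Inh. The blocked fits rest on few residual degrees of freedom, and a single glucose concentration and time point leave the glucose response itself unmeasured.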
